A study of Mus musculus with 2 samples.

Results

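Receptors with which liver cells bind and take up immune complexes, modified lipoproteins and dying cells are described here. They were chosen as a list of named genes, with no measured value in the rule: the Fc receptors for IgG Fcgr1, Fcgr2b, Fcgr3 and Fcgr4 with their signalling chain Fcer1g, the scavenger receptors Msr1, Cd36 and Cd68, and the efferocytosis receptors Axl and Mertk. They are 10 of 38288 genes with a value, and all 10 were among the 12861 genes whose mean FPKM over both libraries was at least 1 (FPKM, fragments scaled to transcript length and library depth). RNA-seq had been performed on adherent liver cells of adult male C57/Bl6 mice after 5 weeks of carbon tetrachloride (CCl4), a hepatotoxin that causes fibrosis. The control library came from Foxf1fl/fl littermates, which carry the floxed alleles and no Cre. The knockout library came from αSMACreER;Foxf1-/- mice (labelled αSMACreER;Foxf1 fl/fl), in which a tamoxifen-activated Cre under the α-smooth muscle actin promoter deletes the forkhead factor gene Foxf1. Tamoxifen was given during the injury to activate the deletion, and the study describes livers of both genotypes after CCl4 and tamoxifen. Cells that stuck to culture dishes within 2 hours were collected and samples were pooled, so that there was 1 library per genotype. No value can therefore be set against a spread between replicates, and no p-value is given.

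Fcγ receptors bind the constant region of IgG. Fcgr1, Fcgr3 and Fcgr4 are activating receptors that signal through the γ chain encoded by Fcer1g, whose immunoreceptor tyrosine-based activation motif (ITAM) recruits the kinase Syk, whereas Fcgr2b carries an inhibitory motif (ITIM) of its own that recruits phosphatases. In the liver these receptors are known from Kupffer cells, the resident macrophages, and Fcgr2b also from sinusoidal endothelial cells, which clear small immune complexes from blood. Scavenger receptors bind modified lipoproteins and many other ligands, and Axl and Mertk are receptor tyrosine kinases that recognise phosphatidylserine on dying cells through the bridging proteins Gas6 and Pros1.

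The labelled cell type, stromal, was checked against markers. The study describes its purified cells as positive for Des and Acta2 and without markers of hepatocytes or Kupffer cells. The 12 Kupffer cell and macrophage markers summed to an FPKM of 9291 in the control library and 7175 in the knockout library, and all 12 passed the filter. The 13 stellate cell and myofibroblast markers summed to 445.2 and 642, and 2 of them, Lrat (0.0778 and 0.111) and Reln (0.683 and 0.313), did not reach a mean of 1. Des had 1.70 and 3.29, and Acta2 had 7.77 and 5.65. The most abundant of the list were Col1a1, Col1a2, Col3a1 and Dcn, at 70.2 to 126.7 in the control and 102.8 to 186.1 in the knockout library. The 10 sinusoidal endothelial markers summed to 798.1 and 826.3, and the 8 hepatocyte markers to 4085 and 1447. The libraries are thus mixed, and the levels below are those of a mixture in which fewer cells of a type and less RNA per cell cannot be told apart. Which cells carried the deletion was not analysed here, and neither was Foxf1. The depth was estimated as about 9750000 and 11350000 reads, from which approximate 95% intervals were computed. They cover counting error only.

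The inhibitory and activating signals of the Fc receptors are carried by short stretches of code. The coding sequence around each motif is shown because the ratio of the receptors that use them is compared below. Capitals mark the codons of the ITIM in coding bases 919 to 996 of Fcgr2b and of the ITAM in coding bases 163 to 261 of Fcer1g, which end with its stop codon (GENCODE M21, build GRCm38, written 5′ to 3′ on the strand of the gene).
Fcgr2b: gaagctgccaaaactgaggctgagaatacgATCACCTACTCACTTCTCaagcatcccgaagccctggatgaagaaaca
Fcer1g: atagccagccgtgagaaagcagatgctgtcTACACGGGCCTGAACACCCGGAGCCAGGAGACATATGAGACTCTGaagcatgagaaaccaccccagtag
Of the 10 members, the ITAM pattern (tyrosine, any 2 residues and leucine or isoleucine, with the same again after any 6 to 8 residues) was found in the translated code of 1, Fcer1g. The ITIM pattern (isoleucine, valine, leucine or serine, any residue, tyrosine, any 2 residues, then isoleucine, valine or leucine) is short and was also matched in activating receptors, for example 3 times in Fcgr1, so a match to it marks no function.

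None of the 10 receptors reached a 1.5-fold difference between the genotypes, the fold threshold of the study, when the libraries were scaled by their median ratio. With an equal FPKM sum 1 receptor did, and relative to Kupffer cell and macrophage markers 5 did, all higher in the knockout library. Under these scalings 2820 and 4093 of all 12861 genes were also at least 1.5-fold higher. After median-ratio scaling, 12.9% of all genes were at least 1.5-fold higher in the knockout library, 13.2% at least 1.5-fold lower, and 26.1% past the threshold in either direction. The study also set a limit on the false discovery rate, which could not be applied here. On the scale log2(FPKM + 0.1) after median-ratio scaling, 6 receptors had a fold change above 0 and 4 below, with a median of 0.15 beside 0.0058 for all genes. The median was 0.35 and 0.50 under those other scalings, which also moved the median of all genes by 0.20 and 0.35. The middle of all genes, from the lower to the upper quartile, ran from -0.32 to 0.33. Of the receptors, 5 had a counting interval wholly above 0 (Fcgr2b, Msr1, Cd36, Axl and Mertk), 2 had one wholly below 0 (Fcgr3 and Fcer1g), and the intervals of the other 3 (Fcgr1, Fcgr4 and Cd68) held 0. The summed FPKM of all 10 was 2462 in the control library and 2458 in the knockout library, as deposited.

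**Figure D1:**
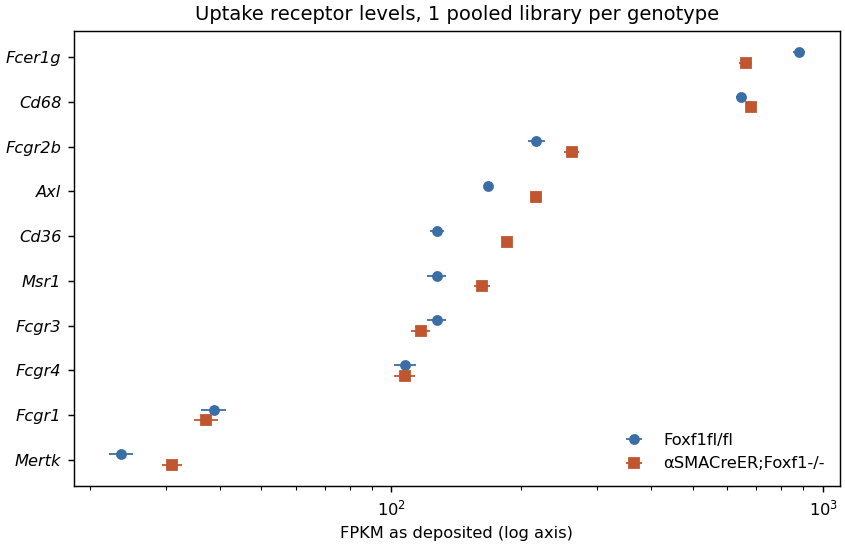
FPKM as deposited (log axis) of the 10 receptors in the control (Foxf1fl/fl, blue circles) and knockout (αSMACreER;Foxf1-/-, orange squares) libraries, 1 pooled library each. Horizontal bars are approximate 95% counting intervals, and levels run from Mertk (23.6 and 31.1) to Fcer1g (879.2 and 661.3).

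Fcgr1, the high-affinity IgG receptor of monocytes and macrophages, lies at chr3:96282909-96293969 on the minus strand (ENSMUSG00000015947; coordinates are those of the deposited values, build mm10). Its FPKM was 38.8 in the control library and 37.2 in the knockout library. The log2 fold change was -0.08 (counting interval -0.21 to 0.04), so that the libraries could not be told apart at this depth, with about 903 and 1009 reads. Fcgr3, a low-affinity activating receptor of macrophages and other myeloid and natural killer cells, lies at chr1:171051174-171064935 on the minus strand (ENSMUSG00000059498). It had an FPKM of 127.2 in the control and 116.9 in the knockout library, a log2 fold change of -0.15 (-0.25 to -0.04), lower by more than the counting error. Fcgr4, an activating receptor of macrophages and neutrophils, lies at chr1:171018920-171029761 on the plus strand (ENSMUSG00000059089) and had 107.6 and 107.4 (-0.03, interval -0.14 to 0.09). Of the 3 activating receptors, Fcgr3 was thus the one that differed by more than its counting error on this scale. That did not hold under other scalings. Fcgr3 was at -0.09, within its error, after upper-quartile scaling and at 0.06 at an equal FPKM sum, where Fcgr4, at 0.18, lay outside its own.

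Fcgr2b, the inhibitory receptor, lies at chr1:170960558-170976547 on the minus strand (ENSMUSG00000026656). Its FPKM was 216.7 in the control and 261.5 in the knockout library, a log2 fold change of 0.25 (0.16 to 0.33) on about 1870 and 2627 reads. It was the most abundant of the 4 Fcγ receptors per length in both libraries, and the only one of them with a fold change above 0, whereas with an equal FPKM sum all 4 lay above 0 and Fcgr2b, at 0.45, remained the highest. Its share of their summed FPKM was 44.2% in the control library and 50% in the knockout library, whereas the share of Fcgr3 was 26% and 22.4%, that of Fcgr4 21.9% and 20.5% and that of Fcgr1 7.91% and 7.11%. The activating to inhibitory ratio, the summed FPKM of Fcgr1, Fcgr3 and Fcgr4 over that of Fcgr2b, was 1.26 (counting interval 1.19 to 1.34) in the control library and 0.9998 (0.951 to 1.05) in the knockout library. The log2 change of this ratio was -0.34 (-0.45 to -0.23), larger than the counting error, and since it is taken within a library it does not depend on the scaling between them.

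Fcgr2b and Fcgr3 are near-identical over part of their code, and their values are uncertain to that extent. Over the aligned coding bases they were 84.4% identical, against 60.6% to 66.3% for the other pairs of Fcγ receptors. The longest run they share is 129 bases, longer than a read of 75 bases, and is shown in capitals in coding bases 266 to 418 of Fcgr2b and 251 to 403 of Fcgr3 (GENCODE M21, GRCm38).
Fcgr2b: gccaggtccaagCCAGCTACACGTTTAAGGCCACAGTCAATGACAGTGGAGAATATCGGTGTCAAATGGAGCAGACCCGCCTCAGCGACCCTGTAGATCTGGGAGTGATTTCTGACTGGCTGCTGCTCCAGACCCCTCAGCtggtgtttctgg
Fcgr3: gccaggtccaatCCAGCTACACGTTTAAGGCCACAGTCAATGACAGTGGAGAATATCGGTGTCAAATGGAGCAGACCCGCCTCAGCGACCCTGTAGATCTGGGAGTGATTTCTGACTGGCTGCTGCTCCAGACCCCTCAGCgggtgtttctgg
Of the stretches of read length in the Fcgr2b transcript, 11.7% (176 of 1504) also occurred in Fcgr3 or in Gm38204, an antisense gene that overlaps Fcgr2b. Of those in Fcgr3, 7.38% (94 of 1273) occurred in Fcgr2b, and the other 8 members shared none with any gene. Whether the counting used strand is not given in the sources used here, so reads of Fcgr2b and of its antisense partner cannot be told apart. Gm38204 had no value in either library, and the part of the 11.7% that occurs in Fcgr3 was not counted separately. Without Fcgr3, the ratio of Fcgr1 and Fcgr4 to Fcgr2b was 0.675 in the control and 0.553 in the knockout library, a log2 change of -0.29 (-0.41 to -0.16). Reads misplaced between the paralogs can still be part of the Fcgr2b value in this ratio. With the length trend removed, the log2 changes with and without Fcgr3 were -0.33 and -0.31.

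Fcer1g, the ITAM-bearing γ chain that the activating receptors need for their surface expression and signal, lies at chr1:171229572-171234365 on the minus strand (ENSMUSG00000058715). It had the highest FPKM of the members in the control library, 879.2, against 661.3 in the knockout library. The log2 fold change of -0.44 (-0.50 to -0.37) was the lowest among the members on this scale, at percentile 18.8 of all genes. Its ratio to the summed activating receptors was 3.21 (3.07 to 3.37) in the control and 2.53 (2.41 to 2.65) in the knockout library, a log2 change of -0.35 (-0.44 to -0.25), a ratio chosen after the values were seen. With the length trend removed this change was -0.20. Tyrobp, the related ITAM adaptor of other myeloid receptors, had an FPKM of 1754 and 1344 and a log2 fold change of -0.41. Both adaptors have short transcripts, and short transcripts were lower in the knockout library in general, as given below.

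Counts past the threshold in this and the later lists stand beside 12.9% of all genes at least 1.5-fold higher and 13.2% lower. Of the 20 ITAM signalling genes, 2 reached 1.5-fold higher and none 1.5-fold lower, and all passed the filter. Their median log2 fold change was 0.03 (-0.08 with the length trend removed). The 2 that rose were Inpp5d, the inositol phosphatase recruited by the ITIM of Fcgr2b, from 30.1 to 50.3 (0.71), and Cbl, a ubiquitin ligase that ends tyrosine kinase signalling, from 3.92 to 8.31 (1.04). With that trend removed (described below), Cbl was at 0.79 and Inpp5d at 0.47, under the threshold. The adaptor Lcp2 and the kinase Prkcd, with Tyrobp the most abundant of the list, were at -0.04 and 0.07, and Syk had 134.5 and 160.2 (0.23). Of 12 Fc receptor relatives, 9 passed the filter, with 2 at least 1.5-fold higher, 1 lower and a median of 0.26. Those that rose, Fcrl5 (1.25 and 3.28) and Fcrls (1.08 and 2.07), had low levels and were named after their values were seen. The one that fell was Pigr, which carries dimeric IgA across epithelia and had 9.80 and 5.36 (-0.88). Fcgrt, the neonatal Fc receptor that recycles IgG and albumin, had 159.1 and 116.6 (-0.47), and Trim21, a cytosolic antibody receptor, was at -0.11.

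**Figure D2:**
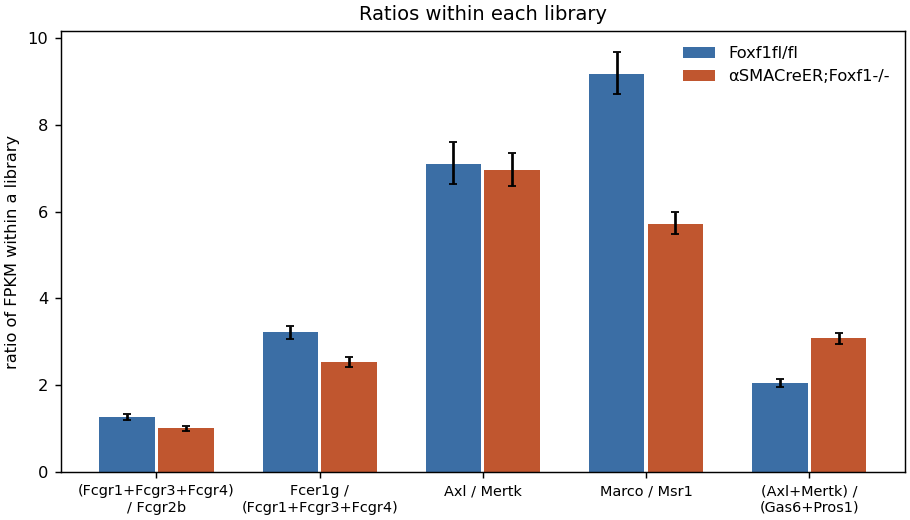
Ratios of FPKM within each library, with bars from 0 and approximate 95% counting intervals, in the control (blue) and knockout (orange) library. The activating to inhibitory Fcγ receptor ratio was 1.26 and 0.9998, Fcer1g to the activating receptors 3.21 and 2.53, Axl to Mertk 7.10 and 6.96, Marco to Msr1 9.18 and 5.72, and Axl and Mertk to Gas6 and Pros1 2.04 and 3.07.

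Msr1, the class A scavenger receptor of macrophages that binds modified lipoproteins, lies at chr8:39581700-39642678 on the minus strand (ENSMUSG00000025044). Its FPKM was 127.2 in the control and 162.3 in the knockout library, a log2 fold change of 0.33 (0.23 to 0.42). Marco, the other class A receptor of Kupffer cells, had 1168 and 928.9 and a log2 fold change of -0.36, opposite in sign. The Marco to Msr1 ratio, chosen after the values were seen, was 9.18 (8.72 to 9.68) in the control and 5.72 (5.48 to 5.98) in the knockout library. Its log2 change of -0.68 (-0.78 to -0.58) is a difference between Marco and Msr1 that does not depend on the scaling between libraries. With the length trend removed it was -0.37, with Marco at -0.17 and Msr1 at 0.21. For this step Msr1 was placed by its longest transcript, 3636 bases, in a length group with a median of 0.12. Its shortest transcript has 1424 bases, a length whose group had a median of -0.25, so the corrected values depend on the transcript taken.

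Cd36, the class B receptor for oxidised lipoproteins and long-chain fatty acids of macrophages, endothelial cells and fat, lies at chr5:17781690-17888959 on the minus strand (ENSMUSG00000002944). It had an FPKM of 127.6 in the control and 185.4 in the knockout library. The log2 fold change of 0.51 (0.45 to 0.58), 1.43-fold, was the highest of the members on this scale, at percentile 84.2 of all genes and just under the threshold. Cd36 took rank 806 among all genes in the control library and rank 495 in the knockout library. Of 12 genes of lipid handling, 0 passed the threshold either way, and their median was 0.15. Lpl, the lipoprotein lipase that frees fatty acids, had 148.7 and 209.8 (0.47), named after its values were seen. Fabp4, a fatty acid carrier of macrophages, endothelium and fat, had 415.2 and 305.1 (-0.47), and Plin2, which coats lipid droplets, 765.4 and 859.4 (0.14). Npc2, a lysosomal cholesterol carrier, was at -0.21. The lipid genes therefore lay on both sides of 0.

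Cd68, a lysosomal glycoprotein of macrophages used as their general marker, lies at chr11:69664213-69666153 on the minus strand (ENSMUSG00000018774). Its FPKM was 646 in the control and 679 in the knockout library, a log2 fold change of 0.05 (-0.01 to 0.10). In the knockout library it was the most abundant member, with an interval that overlapped that of Fcer1g. Its ratio to Adgre1, a surface marker of mature macrophages, was 3.99 in the control and 4.12 in the knockout library (log2 change 0.05, -0.03 to 0.12). With the length trend removed this change was 0.41. The ratio was chosen after the values were seen, and Adgre1 (0.0008) was the 1 of 12 Kupffer cell and macrophage markers above 0. Relative to that whole list Cd68 was at 0.40. Of 12 other lysosomal genes, none passed the threshold and the median was -0.03, which turned to 0.03 after upper-quartile scaling and to 0.18 at an equal FPKM sum. Ctsd, Ctss and Ctsb, cathepsin proteases and the most abundant of them, had log2 fold changes of 0.03, -0.05 and 0.04. On the median-ratio scale these 3 genes, like Cd68, lay close to 0. With the length trend removed they were at 0.14, 0.24 and -0.21, and Cd68 was at 0.34.

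Axl, an efferocytosis receptor of macrophages and fibroblasts that binds Gas6, lies at chr7:25757273-25788705 on the minus strand (ENSMUSG00000002602). Its FPKM was 167.8 in the control and 215.9 in the knockout library, a log2 fold change of 0.34 (0.29 to 0.38) on about 6055 and 9068 reads. Mertk, which binds both Gas6 and Pros1 and is known for dying cell uptake by resident macrophages, lies at chr2:128698956-128802894 on the plus strand (ENSMUSG00000014361). It was the least abundant member, with 23.6 and 31.1 and a log2 fold change of 0.37 (0.25 to 0.48). The kinases, 63.9% identical over their aligned coding bases, were higher in the knockout library by similar amounts. The Axl to Mertk ratio was 7.10 (6.63 to 7.60) in the control and 6.96 (6.58 to 7.35) in the knockout library, a log2 change of -0.03 (-0.16 to 0.10). The interval of this change held 0, which does not show that the ratio was equal. Tyro3, the remaining kinase of the family, had 0.632 and 0.852, under the filter.

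The bridging proteins of these receptors had values below 0 on the median-ratio scale. Gas6 had an FPKM of 41.0 in the control and 37.3 in the knockout library (-0.16), and Pros1, also a cofactor of anticoagulation, 52.9 and 43.1 (-0.32). With an equal FPKM sum Gas6 turned to 0.04 and Pros1 was at -0.12. The ratio of Axl and Mertk to Gas6 and Pros1, chosen after the values were seen, was 2.04 (1.95 to 2.13) in the control and 3.07 (2.94 to 3.21) in the knockout library, a log2 change of 0.59 (0.50 to 0.68). With the length trend removed it was 0.38, with Gas6 at -0.12 and Pros1 at -0.39. Of 9 bridging molecules 0 passed the threshold, with a median of -0.25 that turned to 0.0052 with the length trend removed. The most abundant, Lgals3 (a galectin), C1qb and C1qa (chains of complement C1q), had log2 fold changes of -0.25, -0.35 and -0.46. Of 16 other receptors for apoptotic cells, 14 passed the filter, with a median of 0.23. Of these 14, 3 reached 1.5-fold higher and 0 lower, beside 12.9% and 13.2% of all genes. They lay 10 above 0 and 4 below, and 8 above and 6 below with the length trend removed. Havcr2, which encodes TIM-3, rose from 7.30 to 11.6 (0.64), as did Havcr1 (1.03 and 1.95) and Cx3cr1 (2.30 and 3.83), low in level and named after their values were seen (Cx3cr1 at 0.69, and 0.57 with the length trend removed, under the threshold), whereas Timd4, the TIM-4 receptor of Kupffer cells, had 54.9 and 41.1 (-0.44). Sirpa, Trem2 and the integrin subunit Itgav, the most abundant of the list, were at 0.11, 0.03 and 0.26. Of 15 genes of the engulfment machinery, 14 passed the filter and 1 passed the threshold, Dock1, a guanine nucleotide exchange factor for Rac, with 4.42 and 7.11 (0.65, and 0.25 with the length trend removed). Rhog, Rac1 and Cdc42, GTPases of the engulfing cup, were at -0.36, -0.13 and -0.08.

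Of 20 other scavenger receptors, 17 passed the filter, of which 0 reached 1.5-fold higher and 1 was 1.5-fold lower, with a median of -0.14 that turned to 0.06 with an equal FPKM sum. The receptor that fell was Cd163, which takes up haemoglobin with haptoglobin, from 30 to 18.1 (-0.75). With the length trend removed 3 of the 17 lay above 0 and 14 below, with a median of -0.17. Cd163 (-0.98), Stab1 (-0.98) and Lrp1 (-0.64) were then at least 1.5-fold lower, beside 1374 of all 12861 genes. Without that step Stab1 had 417.4 and 303.4 (-0.49). Cd5l, a protein secreted by Kupffer cells, had 1391 and 1122 (-0.34), and Cd14, the lipopolysaccharide coreceptor, had 1390 and 1004 (-0.50). Megf10 was listed at 0 in both libraries.

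**Figure D3:**
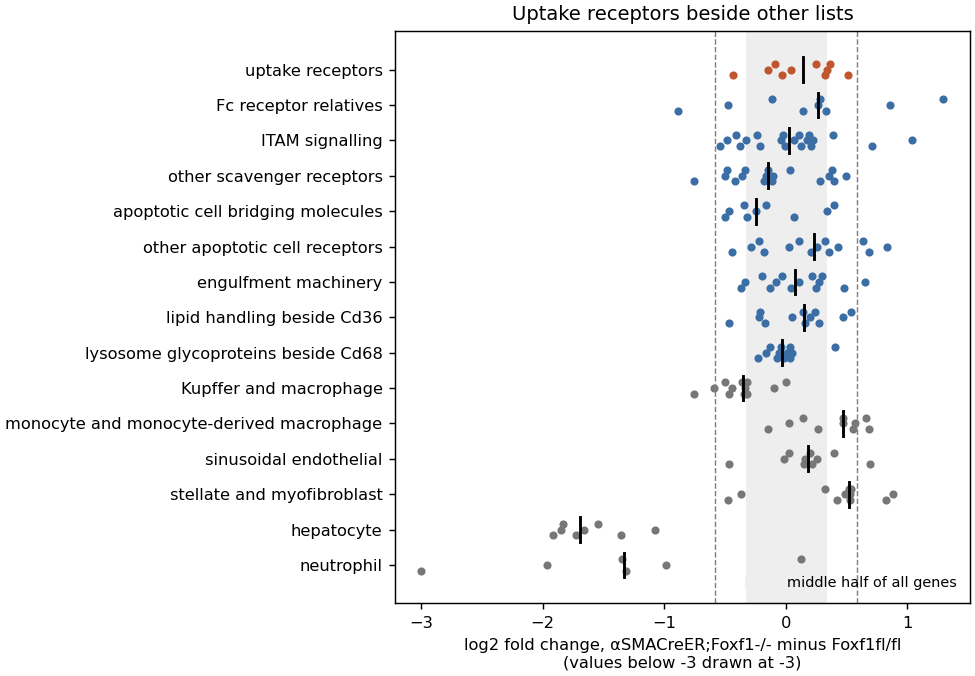
Log2 fold changes (knockout minus control) of genes that passed the filter, 1 point per gene, for the 10 receptors (orange), related lists (blue) and cell type markers (grey). Black bars are medians, the shaded band runs from -0.32 to 0.33 (lower to upper quartile of all genes) and dashed lines mark 1.5-fold; all receptors lie between the dashed lines, with a median of 0.15.

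Marker lists of cell types that carry these receptors moved in different directions. Of the 12 Kupffer cell and macrophage markers, 1 had a log2 fold change above 0 and 11 below, with a median of -0.35 (-0.19 after removal of the length trend, -0.15 at an equal FPKM sum), and 2 passed the threshold, Cd163 and Clec4f (1117 and 753.2, -0.59). Clec4f was under the threshold after removal of the length trend (-0.55), at an equal FPKM sum (-0.39) and after upper-quartile scaling (-0.54), and Cd163 at an equal FPKM sum (-0.55). Of 10 markers of monocytes and monocyte-derived macrophages, 9 were above 0, with a median of 0.47. Itgam, a subunit of complement receptor 3, rose from 46.9 to 75.6 (0.66, and 0.42 with the length trend removed), and the list summed to 5339 and 5432. The median was 0.18 for sinusoidal endothelial markers, of which 8 of 10 were above 0 (-0.06 with the length trend removed), and 0.53 for the 11 stellate and myofibroblast markers that passed the filter (0.20 with the length trend removed). Of these 11, Acta2 (7.77 and 5.65, -0.48) and Tagln (-0.37), genes of contractile myofibroblasts, were the 2 below 0. All 8 hepatocyte markers fell, with a median of -1.69 and a sum of 4085 in the control and 1447 in the knockout library, and 5 of 6 neutrophil markers fell, with a sum of 2033 and 858.1. Medians were 0.31 for 5 B cell, 0.21 for 4 T and NK cell, 0.11 for 4 dendritic cell and 0.0049 for 4 cholangiocyte markers that passed the filter. None of the marker genes was at 0 in both libraries. The part of these lists in the values of the 10 receptors was not tested. Relative to the median ratio of the Kupffer cell and macrophage list in place of all genes, 5 receptors were at least 1.5-fold higher: Cd36 (0.86), Mertk (0.72), Axl (0.69), Msr1 (0.68) and Fcgr2b (0.60). So were 4093 of all 12861 genes. On that scale Fcer1g, at -0.09, was the only member below 0. Relative to Stab2, a scavenger receptor of sinusoidal endothelium, Fcgr2b had a ratio of 3.39 in the control and 3.05 in the knockout library (log2 change -0.15, -0.25 to -0.05), and Cd36 1.99 and 2.16 (0.11, 0.03 to 0.20). Stab2 has a long transcript, and with the length trend removed these log2 changes were 0.60 and 0.54, so the first turned in direction. Both ratios to Stab2 were chosen after the values were seen. Stab2 (0.40) was 1 of the 8 sinusoidal markers above 0. Clec4g, the most abundant of the 10, had 253.8 and 186.9 (-0.47), so the direction for Fcgr2b depends on the marker taken.

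**Figure D4:**
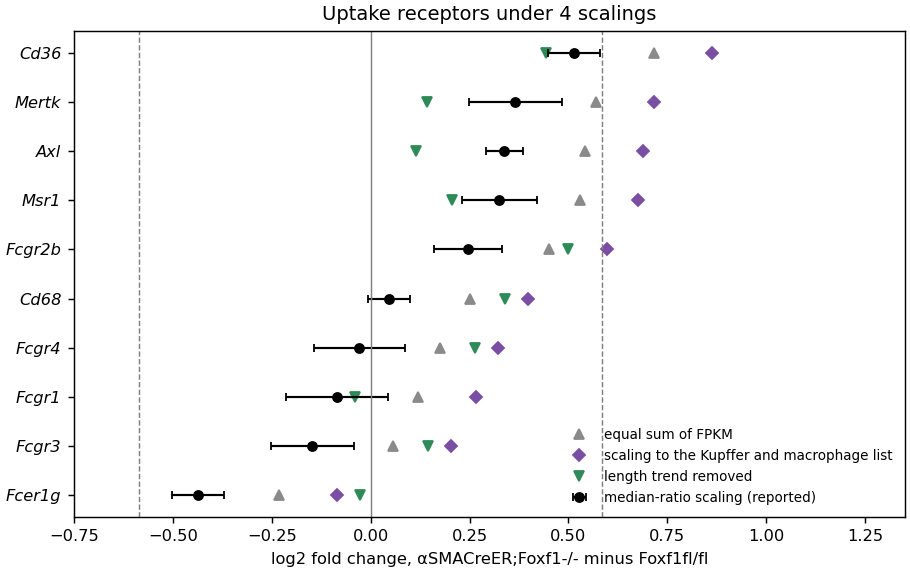
Log2 fold changes of the 10 receptors under median-ratio scaling (black, with approximate 95% counting intervals), equal FPKM sum (grey), scaling to the Kupffer cell and macrophage list (purple) and with the length trend removed (green). Dashed lines mark 1.5-fold; Cd36 lies at 0.51, 0.72, 0.86 and 0.44, and Fcer1g at -0.44, -0.23, -0.09 and -0.03.

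Transcript length moved with the differences between the libraries. Over 20 groups of genes by longest transcript, the median log2 fold change was -0.34 in the group up to 495 bases, -0.41 in the next and 0.50 in the group from 7392 bases. Fcer1g, with a transcript of 683 bases, lay near its group (median -0.41), and Axl (4265 bases) and Mertk (4302 bases) lay in a group with a median of 0.22. With the group median subtracted, Fcer1g was at -0.03 and Tyrobp at -0.0008, and Axl and Mertk were at 0.12 and 0.14. Cd36, with 3399 bases and a group median of 0.07, was at 0.44, and Msr1 at 0.21. The members of 1230 to 1578 bases moved up: Fcgr2b to 0.50, Cd68 to 0.34, Fcgr4 to 0.26 and Fcgr3 to 0.15, the latter 2 with a change of sign. Fcgr1 was at -0.04. The highest member was then Fcgr2b in place of Cd36, and the lowest Fcgr1 in place of Fcer1g. Counting intervals reached 0.09 to each side for Fcgr2b, 0.07 for Cd36, 0.13 for Fcgr1 and 0.06 for Fcer1g. The members of each pair therefore overlapped, and neither order is settled by the reads. After this step, with each gene placed by its longest transcript, Fcgr2b still lay above the 3 activating receptors, and no member passed 1.5-fold. Msr1, placed at 3636 bases, also has a transcript of 1424 bases, a length whose group had a median of -0.25. Fcgr2b, placed at 1578 bases, also has one of 1084 bases, a length whose group had a median of -0.36. Whether Fcgr2b stays under 1.5-fold after this step therefore depends on the transcript taken. What the length trend reflects was not tested.

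**Figure D5:**
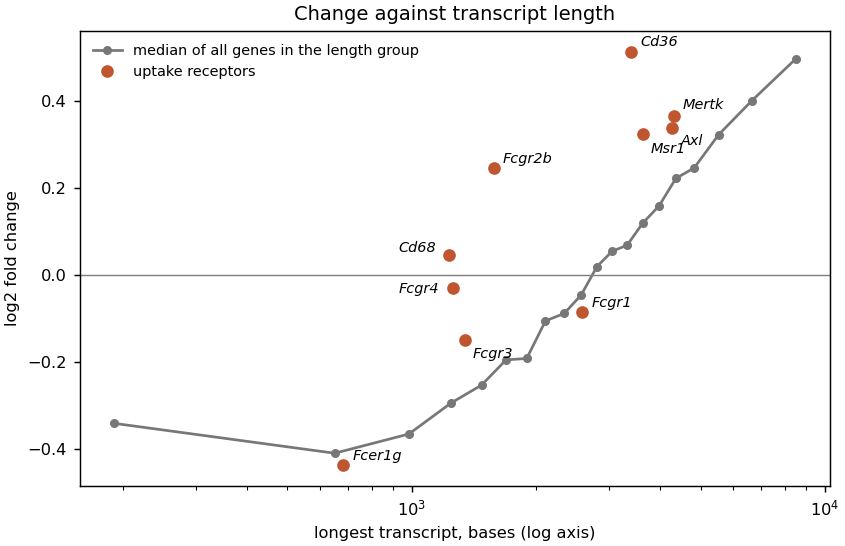
Log2 fold change (knockout minus control) against longest transcript in bases (log axis), for the 10 receptors (orange) and as the median of each of 20 length groups of all genes (grey line, -0.34 in the shortest and 0.50 in the longest group). Fcer1g (-0.44) lies close to the line and Fcgr2b (0.25), Cd36 (0.51) and Cd68 (0.05) lie above it.

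By level, the order in the control library was Fcer1g, Cd68, Fcgr2b, Axl, Cd36, Fcgr3, Msr1, Fcgr4, Fcgr1 and Mertk. The intervals of Cd36, Fcgr3 and Msr1 overlapped, and those of other neighbours did not. In the knockout library the order was Cd68, Fcer1g, Fcgr2b, Axl, Cd36, Msr1, Fcgr3, Fcgr4, Fcgr1 and Mertk, in which Cd68 overlapped Fcer1g and Fcgr3 overlapped Fcgr4. The genes had a median FPKM of 9.12 in the control and 9.37 in the knockout library, so every member lay above the median gene.

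The letters around the starts of the genes were read as well. Promoter windows of 300 bases (250 before and 50 after the start, RefSeq, GRCm38.p6) were matched for 9 of the 10 members. The core GAGGAA of the binding site of PU.1, a factor of myeloid cells, was searched on both strands, as was TTCNNNGAA, the palindrome bound by STAT factors, which does not overlap it in the window shown. The first occurred in 28.3% of all 32851 windows and in those of Fcgr1, Fcgr3, Fcgr4, Axl and Cd68, and the second in 8.3% of all windows and, among the members, in that of Fcgr1. The windows of Fcgr1, which holds both, and of Fcgr2b, which holds neither, are printed with matches in capitals. They cover chr3:96293920-96294219 and chr1:170976022-170976321, both on the minus strand and written 5′ to 3′ on it.
Fcgr1: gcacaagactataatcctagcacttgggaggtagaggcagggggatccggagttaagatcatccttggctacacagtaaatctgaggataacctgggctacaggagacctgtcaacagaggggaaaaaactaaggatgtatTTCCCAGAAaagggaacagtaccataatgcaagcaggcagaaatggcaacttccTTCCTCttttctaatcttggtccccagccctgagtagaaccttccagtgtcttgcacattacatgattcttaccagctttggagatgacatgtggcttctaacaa
Fcgr2b: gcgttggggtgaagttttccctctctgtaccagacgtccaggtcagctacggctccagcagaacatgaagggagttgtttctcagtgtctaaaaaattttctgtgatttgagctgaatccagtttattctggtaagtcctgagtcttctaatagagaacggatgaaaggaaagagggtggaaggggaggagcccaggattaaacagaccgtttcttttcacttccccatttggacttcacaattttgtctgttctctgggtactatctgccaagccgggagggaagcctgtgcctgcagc
In the Fcgr1 window GAGGAA, as its reverse complement, begins at base -55 from the start and TTCNNNGAA at base -109. A match describes the letters only, and no binding was measured here.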

How the data were processed

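RNA was measured in 1 pooled library per genotype. The authors aligned 75-base single-end reads (TruSeq kit) with the Tophat/Cufflinks pipeline, and the deposited values are FPKM per Ensembl gene, normalized to transcript length and mapped fragments. The submitters' processing notes name mm10 and also DESeq, which belongs to a separate quantification not used here. No counts were used. Of 38320 entries, 36490 (95.2%) had a symbol in GENCODE M21, the entry with the highest mean was kept for a repeated symbol, and 3 entries with a status other than OK were left out.

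Knockout values were divided by 1.018, the median ratio over 12011 genes that reached 1 FPKM in each library. Fold changes were taken as log2 after addition of 0.1 to each FPKM, which understates the change of low genes. With 1 library per genotype no test was possible, and a 1.5-fold threshold was taken from the study's methods. The study combined it with a limit on the false discovery rate, so counts past 1.5-fold here are not the study's calls. Read numbers were derived from the steps between low FPKM values, for fragments taken to be 200 bases long. Of 1248 and 1469 such values, 48% and 50.3% came within 0.1 of a whole number of reads, so depth and the 95% counting intervals are rough. Reads were placed on the shortest annotated transcript, which gives the wider interval. The length trend was removed by subtracting the median of each of 20 groups of longest transcript length.

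The 10 members, the companion and marker lists and the motifs were chosen with earlier results of these data known, so no p-value or set test over a list is given. Named were all members and, of each companion list, genes past 1.5-fold whose mean FPKM reached 5 and the 3 most abundant. Other genes were named after their values were seen: Syk, Lpl, Gas6, Pros1, Tyro3, Timd4, Megf10, Lrat, Reln, Acta2, Tagln, Adgre1, Stab2 and, as the few genes behind a count, Fcrl5, Fcrls, Havcr1, Cx3cr1, Clec4f and Itgam. The same holds for Des, Col1a1, Col1a2, Col3a1, Dcn, Clec4g, Colec12, Scara3, Scara5, Stab1 and Lrp1. Proteins were not used, and coding sequences were translated to find the motifs. Alternatives changed the pseudocount, scaling, filter, threshold, handling of repeated symbols and length trend. The procedure was tested on simulated data. The software was biopython 1.88, matplotlib 3.10.9, scipy 1.17.1, pandas 2.3.3 and numpy 2.4.6 under Python 3.11.15. Foxf1 was not analysed here.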

Additional observations from a re-analysis of the deposited data

How the results depend on the processing

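No paired analysis was possible because there was a single library for each genotype, and for the same reason no replicate could be left out. The count of receptors at least 1.5-fold higher, 0, became 1 with an equal FPKM sum (Cd36, 0.72) and 5 with scaling to the Kupffer cell and macrophage list, and their median of 0.15 became 0.35 and 0.50. These scalings move the median of all genes by 0.20 and 0.35 on the log2 scale, and upper-quartile scaling moves it by 0.06. No receptor was 1.5-fold lower under any alternative. With an equal FPKM sum Fcgr1 (0.12), Fcgr3 (0.06) and Fcgr4 (0.18) changed sign. All 10 receptors moved past their counting interval under these 2 scalings, 9 with the length trend removed, 2 with upper-quartile scaling and 0 with another pseudocount, no scaling or summed entries. The activating to inhibitory ratio without Fcgr3 was chosen after seeing the data.

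Of all genes, 1662 were at least 1.5-fold higher, against 2820 with an equal FPKM sum, 4093 with the Kupffer cell and macrophage scaling, 581 at 2-fold, 3978 without a filter and 692 at a mean FPKM of at least 5. Lower were 1697, against 1121, 883, 800, 3304 and 953. Libraries of other animals, read counts and cell composition limit every value, and the cause of these shifts was not tested.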

Other observations

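Fcgr2b, Fcgr4, Fcgr3 and Fcer1g lie within 274 kb of chromosome 1, with 6 other detected coding genes between them. Among these neighbours, Sdhc, a subunit of succinate dehydrogenase, had an FPKM of 123.3 in the control and 112.1 in the knockout library. Tomm40l had 13.5 and 10.7, and Pcp4l1 4.55 and 2.58. Cfap126 had 3.04 and 1.597, and Nr1i3, a nuclear receptor of hepatocytes, 1.64 and 0.996. Apoa2, a hepatocyte apolipoprotein, had 782 and 220.3. Among these 6 genes and the 4 receptors, Fcgr2b was the one with a higher deposited value in the knockout library. For Fcgr4 the deposited values were nearly equal (107.6 and 107.4), and the counting interval of its fold change (-0.14 to 0.09) held 0. After removal of the length trend Fcgr4 (0.26) and Fcgr3 (0.15) also lay above 0, whereas Fcer1g (-0.03) did not. The place of Fcgr2b as the only one is therefore limited to the deposited values.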
